A study of Mus musculus with 6 samples.

Results

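The EGF and FGF receptors with feedback genes are 10 genes of one signalling system. They comprise the ErbB receptors Egfr, Erbb2 and Erbb3, the FGF receptors Fgfr1, Fgfr2 and Fgfr3, and the feedback inhibitors Spry1, Spry2, Spry4 and Dusp6. Members were found by matching these symbols to the gene symbols of the array platform's annotation. A probe carried the symbol of 9 of the 10 genes, and none carried that of Spry1. These 9 genes had 21 of the 45281 probes, and the whole table held probes for 19057 named genes. A probe was kept where its detection p, the chance that background alone gives its brightness, was under 0.05 on at least 3 of the 6 arrays. This kept 15 member probes, which stand for 7 genes. The other 6 member probes were not above background on any array, and they include the only probes of Erbb3 and Spry2.

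RNA came from neurospheres, balls of neural stem cells and their progeny grown in suspension, hybridised to 6 arrays of 1 Illumina MouseWG-6 beadchip. Cells of the subventricular zone of mice aged 18 months were grown in medium with EGF and FGF and taken at 14 days in vitro, with no other treatment. Groups were wt primary spheres (1 array), Wip1-Tg primary spheres (2 arrays), wt secondary spheres (2 arrays) and Wip1-Tg secondary spheres (1 array). Wip1-Tg mice carry a Wip1 transgene, Wip1 being the product of Ppm1d and a phosphatase of p53 and of stress and DNA damage kinases. The labels used here do not give the promoter of that transgene, the strain, the number of animals behind an array or whether secondary spheres descend from the primary spheres measured. Nothing says that replicates came from separate cultures or animals, so the p-values reflect no more than the spread among these arrays, which may be technical.

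Median raw intensity was 150.88 to 168.44 per array, and 17623 to 18699 probes were above background, with the number of arrays limiting the precision of every difference. Ppm1d itself ranged from 9.29 to 10.24 in normalised log2 intensity and was not called by genotype (Wip1-Tg minus wt 0.26, limma adjusted p = 0.5395), which leaves the genotype labels unchecked where the probe lies outside the transgene. The progenitor markers Nes (10.18 to 11.70) and Sox2 (9.58 to 10.06) were measured, while Pax6 and Msi1 were not above background on any array. The labels call the samples gender matched. All 4 probes of Xist, transcribed from the inactive X chromosome, were nevertheless above background on Wip1-Tg primary 2 and the 3 secondary arrays, and 0 of 4 were on wt primary 1 and Wip1-Tg primary 1. Kdm5d, on the Y chromosome, was detected on those 2 primary arrays alone. The passage differences of the members are therefore given also for the 4 arrays with Xist signal. Of these arrays only Wip1-Tg primary 2 is primary, and wt occurs only among the secondary ones. Every passage difference and call given for the 4 arrays thus compares Wip1-Tg secondary 1 with Wip1-Tg primary 2.

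EGF and FGF are the mitogens that keep neural stem and progenitor cells dividing in sphere culture. Their receptors are tyrosine kinases that pair on binding a ligand and drive the Ras, Raf, MEK and ERK cascade. ERK in turn induces immediate early genes, ETS family transcription factors and its own inhibitors. Among those inhibitors, Sprouty proteins restrain signalling between receptor and Raf, and Dusp6 is a cytoplasmic phosphatase that removes the activating phosphates from ERK. Transcript levels of such feedback genes are widely used as a readout of the pathway, though an array measures neither receptor protein nor ERK phosphorylation.

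The promoters of the 3 members that rose in secondary spheres, and of Egfr, which did not pass, are shown so that the letters ETS factors read can be seen. They are 300-base windows from RefSeq on GRCm38.p6 that span the annotated start and lie mostly upstream of it. The Fgfr3 window is chr5:33721474-33721773 on the plus strand, the Fgfr2 window chr7:130266759-130267058 on the minus strand, the Dusp6 window chr10:99262981-99263280 on the plus strand and the Egfr window chr11:16751953-16752252 on the plus strand. All are written 5′ to 3′ in the direction of transcription, and capitals mark the ETS core GGAA or its reverse complement.
Fgfr3: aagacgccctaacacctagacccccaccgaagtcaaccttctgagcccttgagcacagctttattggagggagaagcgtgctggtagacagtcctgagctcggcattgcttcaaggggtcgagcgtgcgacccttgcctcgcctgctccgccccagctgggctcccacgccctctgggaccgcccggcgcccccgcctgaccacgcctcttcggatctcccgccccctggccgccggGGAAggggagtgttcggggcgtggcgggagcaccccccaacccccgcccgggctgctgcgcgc
Fgfr2: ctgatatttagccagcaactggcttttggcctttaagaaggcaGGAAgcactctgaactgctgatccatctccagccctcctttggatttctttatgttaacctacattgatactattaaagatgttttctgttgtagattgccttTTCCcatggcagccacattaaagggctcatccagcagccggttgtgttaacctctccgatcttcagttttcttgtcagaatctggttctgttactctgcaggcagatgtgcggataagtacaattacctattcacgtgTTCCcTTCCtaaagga
Dusp6: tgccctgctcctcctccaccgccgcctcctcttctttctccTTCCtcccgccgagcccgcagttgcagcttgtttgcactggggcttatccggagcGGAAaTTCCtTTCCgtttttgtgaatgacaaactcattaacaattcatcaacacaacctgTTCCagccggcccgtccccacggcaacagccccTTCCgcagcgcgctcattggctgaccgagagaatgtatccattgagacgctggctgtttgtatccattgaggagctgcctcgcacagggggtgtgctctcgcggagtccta
Egfr: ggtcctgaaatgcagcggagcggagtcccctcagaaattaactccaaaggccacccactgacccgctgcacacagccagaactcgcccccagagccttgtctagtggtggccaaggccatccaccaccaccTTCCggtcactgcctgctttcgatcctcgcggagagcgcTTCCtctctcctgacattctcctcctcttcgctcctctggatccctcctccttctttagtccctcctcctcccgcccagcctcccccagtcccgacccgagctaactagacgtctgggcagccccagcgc
Searched on both strands, GGAA occurred 1 time in the Fgfr3 window, 13 bases before the start (a further Fgfr3 entry, chr5:33722056-33722355, held 5 and is not printed), 4 times in that of Fgfr2, 6 times in that of Dusp6 and 2 times in that of Egfr. This core is common, being present in 96.0% of 32851 promoter windows with a median of 3 matches, so these counts set no member apart. The longer ETS form CCGGAA, which contains the core, occurred in the Egfr window and in none of the other windows printed, against 14.9% of all promoters. The AP-1 letters TGANTCA (7.81% of promoters) and the cyclic AMP response letters TGACGTCA (1.79%) were not found in these 4 windows. Of the windows, Fgfr3 was the richest in G and C (69.7%), followed by Egfr (62.3%) and Dusp6 (57.3%), while Fgfr2 (43.7%) lay below the median of all promoters (52.7%). A match is a description of the letters and not of binding.

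The first comparison was of secondary with primary spheres, in a linear model that held genotype as a further term. Fgfr3, Fgfr2 and Dusp6 rose in secondary spheres and no member fell. This is 3 of 7 measured genes (42.9%), against 14.3% of the 12755 features called higher, 13.8% called lower and 28.1% called in either direction. The median difference of the 7 genes was 0.42 on the log2 scale, against 0.042 over all features. The same 3 genes had their lowest secondary array above their highest primary array, a pattern that 25% of all features showed. The members were chosen with earlier results of these data known, so these shares describe the 7 genes and test no excess.

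Fgfr3, the FGF receptor found in radial glia and astrocytes, showed the largest difference of the members. In normalised log2 intensity it stood at 8.68 in wt primary, 8.94 and 8.60 in Wip1-Tg primary, 10.07 and 9.96 in wt secondary and 9.52 in Wip1-Tg secondary spheres. All 3 secondary arrays were higher than every primary array, and the Wip1-Tg array was the lowest of the secondary arrays. Secondary minus primary was 1.04 (SE 0.178, 95% interval 0.62 to 1.47, n = 3 arrays per passage, limma adjusted p = 0.008327), which is 2.06-fold. Within wt spheres the difference was 1.33, and within Wip1-Tg spheres 0.75. In each, a lone array stood for a passage. The wt primary array had no Xist signal, while both wt secondary arrays had it.

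Fgfr2, an FGF receptor that glia and progenitors of the brain express, was brighter in secondary spheres too. It stood at 10.77 in wt primary and 10.53 and 10.28 in Wip1-Tg primary spheres, then at 11.43 and 11.20 in wt secondary and 11.19 in Wip1-Tg secondary spheres. The passages did not overlap, and within each passage the wt arrays lay at or above the Wip1-Tg arrays. The difference was 0.66 (SE 0.143, 95% interval 0.32 to 1.00, n = 3 arrays per passage, limma adjusted p = 0.01805), or 1.58-fold.

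Fgfr1, the receptor through which FGF2 acts on many neural progenitors, was dim, at 6.26 in wt primary, 6.46 and 6.15 in Wip1-Tg primary, 6.94 and 7.03 in wt secondary and 6.43 in Wip1-Tg secondary spheres. The wt secondary arrays were the brightest, and the Wip1-Tg secondary array fell within the range of the primary arrays. Its difference of 0.42 (95% interval 0.0042 to 0.84) did not pass over all features (limma adjusted p = 0.1177).

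Egfr, the receptor of EGF and a marker of activated neural stem cells and transit-amplifying progenitors, was among the brightest members on every array. Its brightest probe read 12.003 in wt primary, 12.05 and 11.87 in Wip1-Tg primary, 12.33 and 11.998 in wt secondary and 12.47 in Wip1-Tg secondary spheres. The wt secondary arrays differed by 0.33 from each other, as much as the passage difference of 0.33 (SE 0.156, 95% interval -0.041 to 0.71, limma adjusted p = 0.157).

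Erbb2, the ErbB receptor without a known ligand that serves as partner to the others, read 7.21 in wt primary, 7.02 and 6.51 in Wip1-Tg primary, 6.63 and 6.74 in wt secondary and 6.61 in Wip1-Tg secondary spheres. Of the primary arrays, wt primary 1 and Wip1-Tg primary 1 were above all secondary arrays and Wip1-Tg primary 2 was below them all, and the difference of -0.33 (SE 0.180) did not pass (limma adjusted p = 0.2091). Erbb3, which binds neuregulins and has little kinase activity of its own, was not above background. Its probe had raw intensities of 143.1 to 169.1 and detection p-values of 0.0855 to 0.861 over the 6 arrays, which bounds its signal and does not show absence of the transcript.

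Of the feedback genes, Dusp6 rose with passage and Spry4 was not called. Dusp6 was among the brightest members, at 12.34 in wt primary, 12.55 and 12.50 in Wip1-Tg primary, 13.13 and 12.67 in wt secondary and 13.34 in Wip1-Tg secondary spheres. The secondary arrays were all above the primary arrays, but wt secondary 2 lay 0.46 below its own replicate and near the primary range. The difference was 0.69 (SE 0.163, 95% interval 0.30 to 1.08, n = 3 arrays per passage, limma adjusted p = 0.02362), or 1.62-fold. Spry4 read 7.74 in wt primary, 8.09 and 7.90 in Wip1-Tg primary, 7.74 and 7.86 in wt secondary and 7.56 in Wip1-Tg secondary spheres. Its passages overlapped and its difference was -0.19 (95% interval -0.56 to 0.18, limma adjusted p = 0.3885). Spry2 was not above background on any array, with raw intensities of 128.3 to 144.1 and detection p-values of 0.727 to 0.89. Spry1 was not analysed here.

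**Figure D1:**
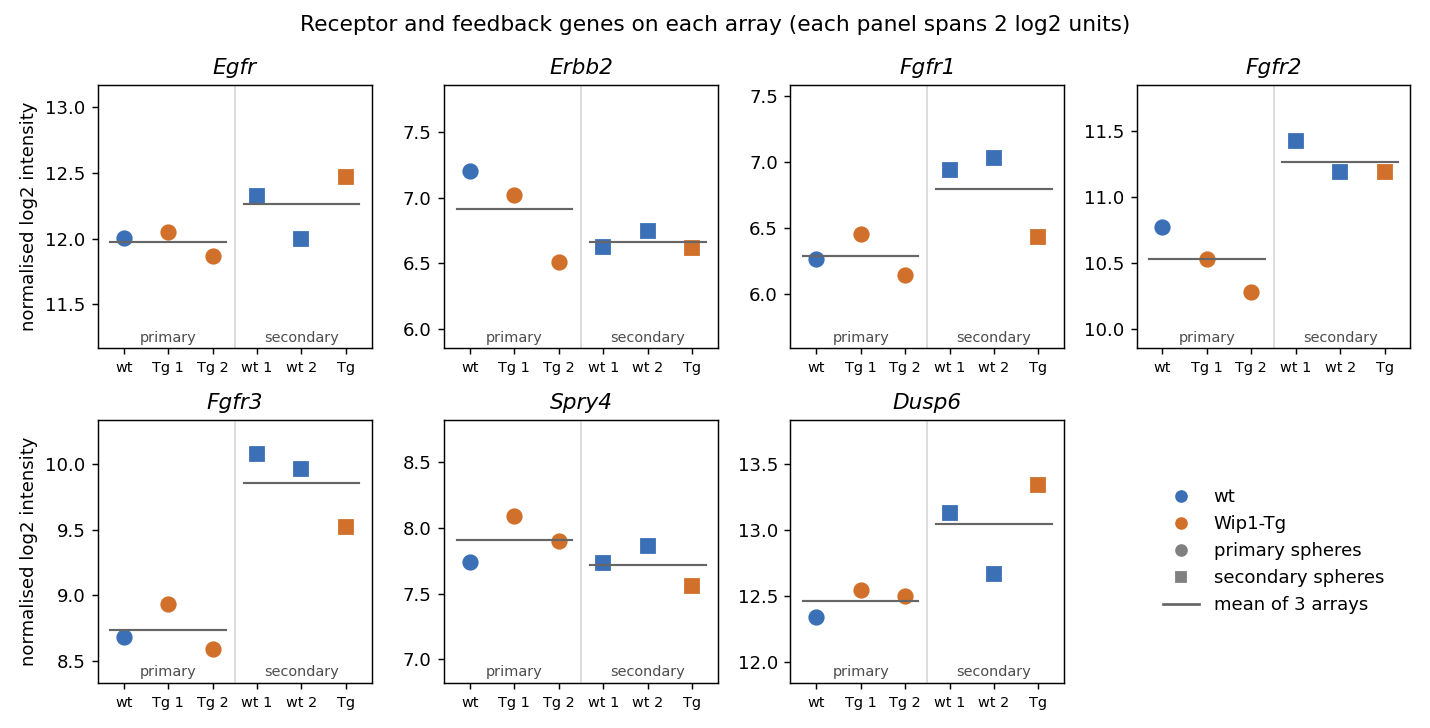
Normalised log2 intensity (y axis) of the brightest kept probe of each of the 7 measured genes on the 6 arrays (x axis), with circles for primary and squares for secondary spheres, blue for wt and orange for Wip1-Tg, and a line at the mean of the 3 arrays of a passage. Every panel spans 2 log2 units. Fgfr2, Fgfr3 and Dusp6 do not overlap between passages, while Egfr, Erbb2, Fgfr1 and Spry4 do.

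Several members had more than 1 kept probe, and these did not all move alike. Fitted over all 18274 kept probes, 7 of the 15 member probes rose in secondary spheres and none fell, against 12.9% of all kept probes called higher. Dusp6 was the member with every probe called, its 3 probes differing by 0.69 to 1.04. For Egfr, 2 of 5 probes rose (0.56, limma adjusted p = 0.03241, and 0.63, limma adjusted p = 0.04295) while the other 3, the brightest among them, did not pass, and the 5 differences ran from 0.058 to 0.63. The second probe of Fgfr3 was dim, at log2 intensities of 5.36 to 6.91, and gave 0.52 (limma adjusted p = 0.3195). The second kept probe of Fgfr2 gave 0.17 (limma adjusted p = 0.5209), and 2 further Fgfr2 probes were not above background on any array. In the annotation the 2 Egfr probes that rose carry 1 transcript record. The uncalled Egfr probes at 0.058 and 0.26 carry another, and the brightest carries none. The kept probes of Fgfr2 share 1 record, as do those of Fgfr3, and whether a probe reports only that isoform was not tested. The Fgfr2 and Fgfr3 values above are those of their brightest probes. With the mean of a gene's kept probes Fgfr3 gave 0.78 (limma adjusted p = 0.0628) and Fgfr2 0.42 (limma adjusted p = 0.06394), while Dusp6 gave 0.87 and stayed past the threshold.

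**Figure D2:**
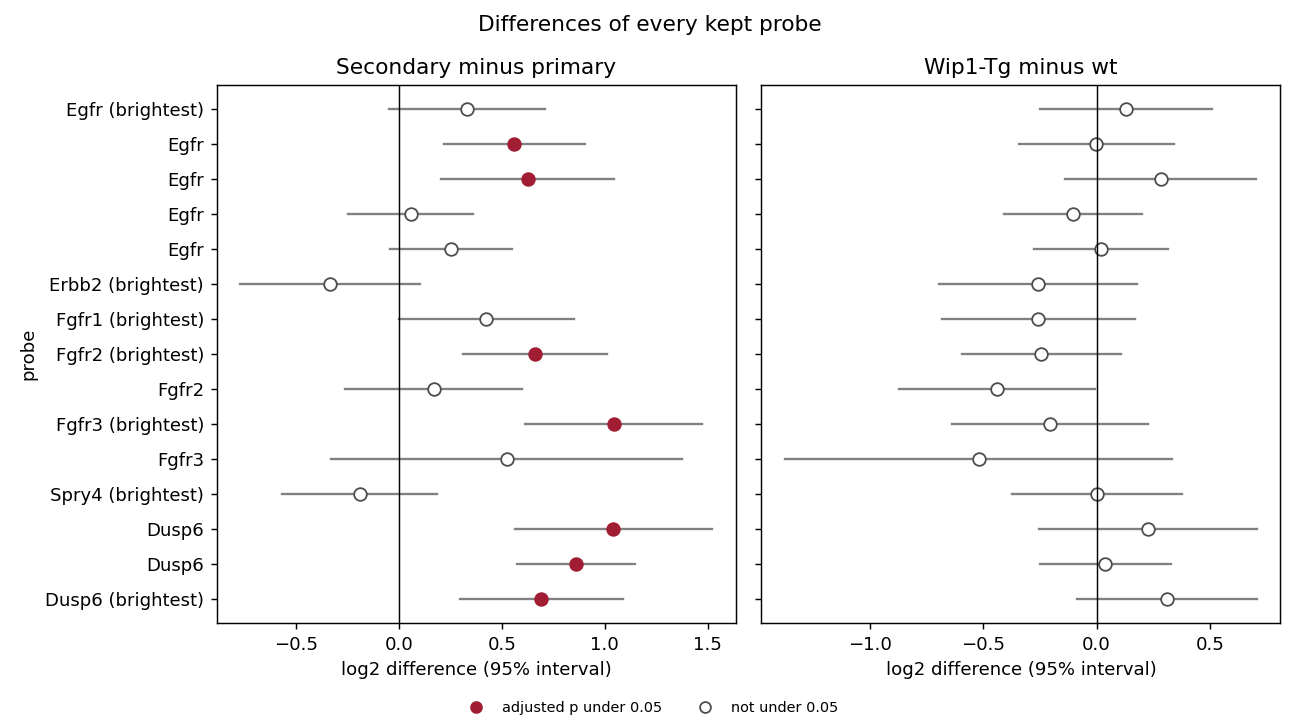
Log2 difference with its 95% interval (x axis) for each of the 15 kept member probes (y axis), secondary minus primary on the left and Wip1-Tg minus wt on the right, from the fit of all kept probes. Filled points have an adjusted p under 0.05. On the left 7 points are filled, including all 3 of Dusp6 and 2 of 5 for Egfr, and on the right none is.

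Markers of several cell types moved with passage in the same arrays, those of astrocytes mostly upward. The counts below stand beside 14.3% of all features called higher and 13.8% called lower. Of 14 measured astrocyte markers, 9 rose and 1 fell in secondary spheres, with a median difference of 1.32. Those with the smallest p were the gap junction gene Gjb6 (4.92), the glycolytic enzyme Aldoc (2.11) and the acyl-CoA synthetase Acsl6 (1.38), while Gfap, the intermediate filament of astrocytes, fell by 1.38 on the log2 scale. Their summed linear intensity was 46220 to 59350 on the primary arrays and 88510 to 110600 on the secondary arrays, and no marker of the list was below background throughout. Among progenitor markers Hes5 rose by 1.62 and Vim fell by 0.90 on the log2 scale, and the other 7 measured were not called. Gfap lost its call without Wip1-Tg secondary 1 (-1.02), and Vim without wt primary 1 (-0.67). Of 5 measured ependymal markers 4 fell, among them Tppp3 (-2.29) and Cfap126 (-1.63), and the median was -0.84. No removal of 1 array kept all 4 calls, and without wt primary 1 Tppp3 (-2.01) and Cfap126 (-1.33) lost theirs. With Xist signal as a further term, or without variance moderation, no ependymal marker was called. Of 10 measured neuroblast and neuronal markers 4 fell, among them Nefm (-2.16) and Gad2 (-2.03), and Dcx, not above background on any primary array, was at least 2.36-fold higher. Of 13 measured oligodendrocyte lineage markers 2 rose and 2 fell, with Gpr17 at 2.43, Pdgfra at -0.95 and Sox10 at -1.03. Among the 4 arrays with Xist signal 8 astrocyte markers rose and 1 fell, 1 ependymal, 2 neuronal and 2 oligodendrocyte markers fell, none of these 3 lists had a rise, and Hes5 (1.199) and Vim (-0.68) were not called. Of 12 microglial and immune markers with a probe, 8 were not above background on any array, among them Itgam, Cx3cr1 and Ptprc. Of 9 endothelial markers 5 were not, Pecam1 and Cdh5 among them, but Flt1 was above background on all 6 arrays and fell by 1.96 on the log2 scale (limma adjusted p = 0.007945). In bulk RNA fewer cells of a type and less RNA per cell cannot be told apart, and the part of these marker changes in the rise of Fgfr3, Fgfr2 and Dusp6 was not tested.

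The calls for passage depended on the scaling and on which arrays entered. With arrays scaled to equal medians in place of quantiles, the median of all features moved to -0.24, and Fgfr3 (0.72) passed while Fgfr2 (0.36) and Dusp6 (0.38) did not. Among the 4 arrays with Xist signal the differences were 0.92 for Fgfr3, 0.91 for Fgfr2 and 0.85 for Dusp6, so all kept their direction. Each is Wip1-Tg secondary 1 minus Wip1-Tg primary 2, a single array on each side, and none kept its call. In those 4 arrays Egfr gave 0.60, Fgfr1 0.29, Spry4 -0.34 and Erbb2 0.11, the last with its sign turned, and none of them passed. The uncalled members moved most without wt primary 1, to 0.13 for Fgfr1, 0.51 for Egfr and -0.15 for Erbb2, and without Wip1-Tg secondary 1, to 0.72, 0.16 and -0.52. Without wt primary 1 every passage difference is the one within Wip1-Tg spheres, and without Wip1-Tg secondary 1 the one within wt spheres. These 2 removals thus repeat values given elsewhere by genotype. The difference within wt spheres also sets an array without Xist signal against arrays with it. Fgfr3 passed in 15 of 20 alternative settings, with differences of 0.72 to 1.33. Among single arrays left out only the removal of wt primary 1 ended its call (0.75). Fgfr2 passed in 12 of 20 settings (0.36 to 0.91) and lost its call without wt primary 1, without wt secondary 1 and without Wip1-Tg secondary 1. Dusp6 passed in 11 of 20 settings (0.38 to 0.87) and, of the 6 removals of 1 array, kept its call only without wt secondary 2.

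**Figure D3:**
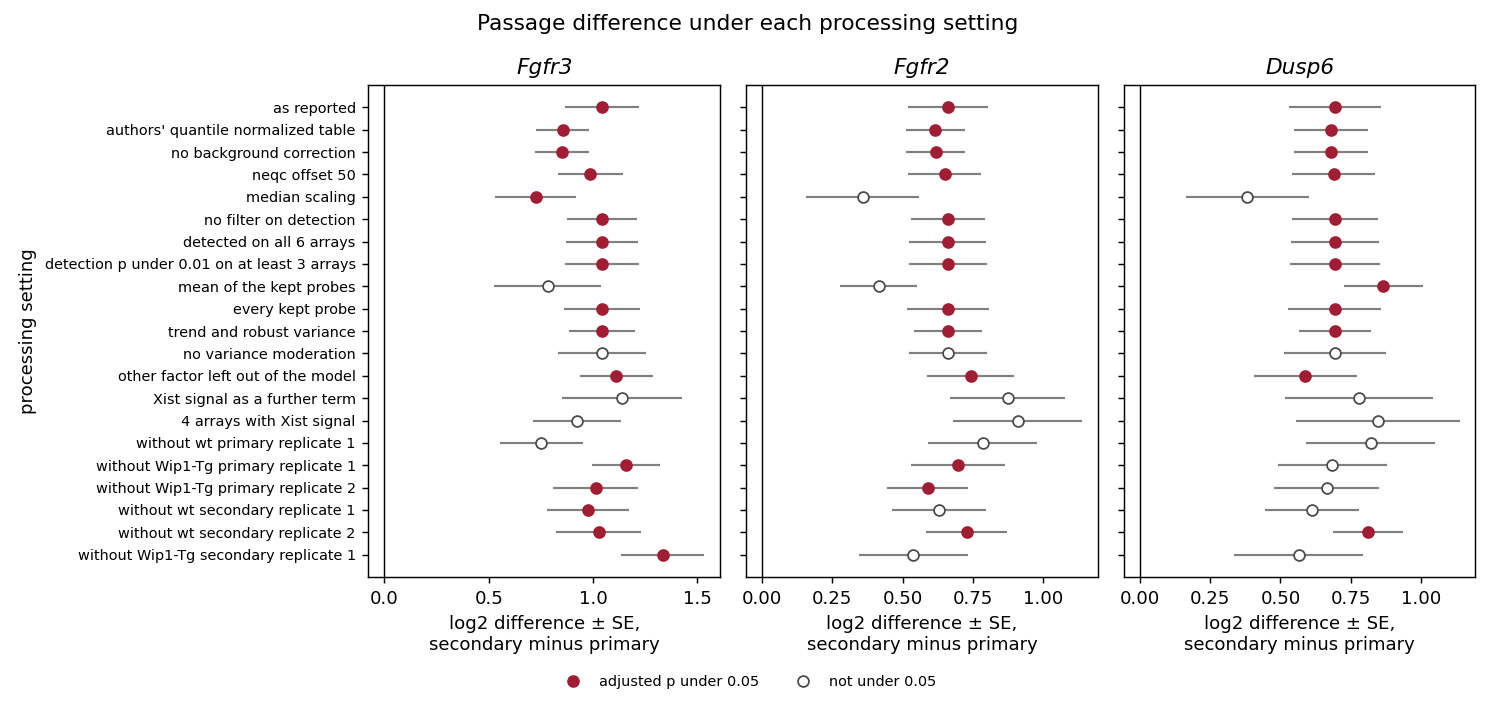
Secondary minus primary difference on the log2 scale with its standard error (x axis) for Fgfr3, Fgfr2 and Dusp6 under the reported setting and 20 alternatives (y axis). Filled points have an adjusted p under 0.05. All points lie above 0, from 0.72 to 1.33 for Fgfr3, 0.36 to 0.91 for Fgfr2 and 0.38 to 0.87 for Dusp6, and open points show where a call was lost.

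The second comparison was of Wip1-Tg with wt spheres, the comparison the study names, with passage as a further term. No measured member was called, and none had an unadjusted p under 0.05 in its brightest probe. In that fit limma called 0 of 12755 features (0%) and 1286 (10.1%) had an unadjusted p under 0.05. In the fit of all kept probes the second Fgfr2 probe gave -0.44 (95% interval -0.87 to -0.0088) and did not pass (limma adjusted p = 0.5211). Differences were negative for the 3 FGF receptors and Erbb2, at -0.26 for Fgfr1, -0.24 for Fgfr2, -0.21 for Fgfr3 and -0.26 for Erbb2. They were positive for Egfr (0.13), Dusp6 (0.31) and Spry4 (0.0041). Adjusted p-values of the 7 genes lay between 0.5706 and 0.9966 (limma), and their median difference was -0.21 against 0.0079 over all features. The 95% interval of Dusp6, the member with the smallest p, was -0.079 to 0.70, and that of Fgfr3 was -0.63 to 0.22. A p above the threshold does not show equal levels. In all 7 genes the wt and Wip1-Tg arrays overlapped, where 4.74% of all features lay wholly higher and 3.68% wholly lower in Wip1-Tg. For Fgfr3, Fgfr2 and Dusp6 this overlap was fixed in advance and says nothing of genotype. Their passages did not overlap, and each genotype has arrays at both passages.

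Whether passage acted alike in the 2 genotypes was tested with an interaction term. No member passed (limma adjusted p from 0.5639 to 0.8189, and none had an unadjusted p under 0.05), where limma called 0 of 12755 features (0%) and 9.38% had an unadjusted p under 0.05. Side by side, the passage difference in wt and in Wip1-Tg was 1.33 and 0.75 for Fgfr3, 0.72 and 0.13 for Fgfr1, 0.54 and 0.78 for Fgfr2 and 0.56 and 0.82 for Dusp6. It was 0.16 and 0.51 for Egfr, -0.52 and -0.15 for Erbb2 and 0.055 and -0.44 for Spry4. For Spry4 both Wip1-Tg primary arrays were above the wt primary array and the Wip1-Tg secondary array was below both wt secondary arrays, giving genotype differences of 0.25 and -0.24 and an interaction of -0.49 (limma adjusted p = 0.571). Each of these values rests on a lone array in 1 of its groups, which the fit assumes to vary like the others. The wt passage differences also set wt primary 1, with no Xist signal, against secondary arrays that had it. Within wt spheres, passage and the Xist difference cannot be told apart.

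The other genes of the pathway were described by lists, beginning with the ligands. The lists were written with earlier results of these data known, so their counts test no excess over all features. Their counts of passage calls stand beside 14.3% of all features called higher and 13.8% called lower. Of 9 EGF family ligands with a probe, 4 were measured, and 3 fell and none rose in secondary spheres (median -0.50). Hbegf, the membrane-anchored ligand released by shedding, read 11.89, 11.48 and 11.83 on the primary arrays and 10.42, 10.33 and 10.58 on the secondary arrays, so that every primary array was higher. Its difference was -1.30 (SE 0.162, limma adjusted p = 0.002756), although a dimmer probe of Hbegf gave 0.14 and did not pass. Nrg1 (-0.50, limma adjusted p = 0.03217) and Btc (-0.50, limma adjusted p = 0.04421) were dim, and both lost their calls whichever single array was left out (differences of -0.63 to -0.38 for Nrg1 and -0.61 to -0.40 for Btc). With the authors' quantile normalized table the median of the list was -0.17, and without background correction -0.16, with 1 gene lower in each, and in the 4 arrays with Xist signal it was -0.76 with 1 lower (Hbegf, -1.25). Egf and Tgfa themselves were not above background on any array, nor were Ereg, Nrg3 and Nrg4.

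Of 22 FGF ligands, 4 were measured and 14, Fgf2 among them, were not above background on any array, so the transcript of the ligand usually supplied to such cultures was not visible. Fgf12, an intracellular member of the family that binds sodium channels rather than receptors, rose by 2.25 (SE 0.208, limma adjusted p = 0.001117). Fgf22 was above background on all primary arrays but on only 1 of 3 secondary arrays, so its size is uncertain. It fell, with a difference of -0.96 (SE 0.171, limma adjusted p = 0.009454) that ran from -1.34 to -0.30 over the alternatives, and lost its call without wt primary 1 (-1.02) and without Wip1-Tg secondary 1 (-0.91). Fgf1 and Fgf13 were not called.

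Among 11 measured other receptors and co-receptors, 3 rose and 3 fell (median 0.13). The median was -0.45 without wt primary 1 (3 higher, none lower), -0.55 in the 4 arrays with Xist signal (1 higher, 1 lower) and -0.17 with median scaling (1 higher, 5 lower). Sdc2, a heparan sulfate syndecan, rose by 0.77 (SE 0.116, limma adjusted p = 0.005509), while Fgfrl1, an FGF receptor without a kinase domain, fell by 0.68 on the log2 scale. Sdc1 fell too (-0.92, with -1.24 to -0.28 over the alternatives), but was above background on only 1 of 3 secondary arrays, so its size is uncertain. Cdh2, the N-cadherin that associates with FGF receptors, was not above background on any primary array and was at least 1.77-fold higher in secondary spheres (limma adjusted p = 0.002763). That bound sets the secondary mean against the higher of the probe's own value and the dimmest value above background on each primary array. The other kept probe of Cdh2 gave 0.30 and did not pass. Gpc4 (0.66) and Gpc1 (-0.40), named after their values were seen, were the remaining calls, and Gpc1 lost its call whichever array was left out (-0.53 to -0.27). Gpc4 lost its call without Wip1-Tg primary 1 (0.57), wt secondary 2 (0.66) or Wip1-Tg secondary 1 (0.46). Without wt primary 1 the calls of Sdc1 (-0.85) and Fgfrl1 (-0.70) were lost, and without Wip1-Tg secondary 1 those of Sdc1 (-0.99), Fgfrl1 (-0.65) and Sdc2 (0.73, limma adjusted p = 0.05008). In the 4 arrays with Xist signal Cdh2 (1.17) and Sdc1 (-1.12) were called and Sdc2 (0.88), Gpc4 (0.72), Fgfrl1 (-0.73) and Gpc1 (-0.55) were not. Erbb4, Fgfr4 and the klotho co-receptors Kl and Klb were not above background on any array.

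Inside the cell, none of the 10 measured adaptors was called, and their median was 0.19, or about 0 without wt primary 1 (-0.0038) and in the 4 arrays with Xist signal (-0.0054) and -0.062 with median scaling. Of 6 measured genes of the Ras-ERK core none rose and 2 fell (median -0.21). Rras, a Ras-related GTPase, read 11.68, 11.18 and 11.46 on the primary and 9.38, 9.73 and 9.32 on the secondary arrays, a difference of -2.06 (SE 0.154, limma adjusted p = 0.00061). Araf, a Raf kinase, fell by 1.05 on the log2 scale in its brightest probe (limma adjusted p = 0.00198), but its 4 kept probes ran from -1.05 to 0.45.

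Of 15 measured other feedback genes, 1 rose and 4 fell (median 0.067). Without wt primary 1 none rose and 1 fell (median -0.035), and in the 4 arrays with Xist signal likewise (0.014), while with median scaling none rose and 4 fell (-0.24). The 1 that fell in the 4 arrays was Dusp4 (-1.31). Dusp4, a nuclear phosphatase of ERK, moved opposite to its cytoplasmic relative Dusp6. It read 9.64, 9.44 and 9.47 on the primary and 7.87, 8.17 and 8.16 on the secondary arrays, and all 3 of its kept probes fell, by 0.91 to 1.46 on the log2 scale (limma adjusted p = 0.001291 for the brightest). The phosphatases Dusp7 (-0.73, limma adjusted p = 0.007979) and Dusp5 (-0.67, limma adjusted p = 0.01007) fell as well, as did Rasa1 (-0.45, limma adjusted p = 0.04325), a GTPase-activating protein for Ras. Spry3, named after its value was seen, rose by 0.40 (limma adjusted p = 0.04721), passed in 4 of 20 alternative settings and lost its call whichever array was left out (0.33 to 0.47), as did Rasa1 (-0.50 to -0.40). Dusp5 lost its call without wt primary 1 (-0.67) and without Wip1-Tg secondary 1 (-0.68), and Dusp7 without wt primary 1 (-0.62). Errfi1, Il17rd and Spred1, also named after their values were seen, gave 0.067, -0.26 and 0.047 and did not pass.

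Of 16 measured ERK-responsive transcription factors and targets, 10 fell and 2 rose in secondary spheres, with a median of -0.73. Over all features 13.8% were called lower and 14.3% higher. Those not called, listed after their values were seen, were Egr1 (-0.15), Elk3 (-0.50), Elk4 (-0.19) and Myc (0.15). The falls with the smallest p were those of the immediate early genes Egr2 (-1.80, limma adjusted p = 0.001495), Phlda1 (-1.44, limma adjusted p = 0.00161), Junb (-2.31, limma adjusted p = 0.002025) and Ier3 (-3.52, limma adjusted p = 0.00214). The 2 that rose, named after their values were seen, were the ETS factors Etv4 and Etv5, which are classical targets of FGF signalling. Etv4 read 9.55, 9.68 and 9.40 on the primary and 10.34, 10.31 and 10.39 on the secondary arrays, a difference of 0.81 (SE 0.128, limma adjusted p = 0.006274). Etv5 read 9.99, 9.91 and 9.92 on the primary and 10.47, 10.43 and 10.46 on the secondary arrays, a difference of 0.50 (SE 0.109, limma adjusted p = 0.01827), and its other kept probe gave 0.31. Neither overlapped between passages. Over all alternatives the list's median ran from -0.96 to -0.57, Etv4 passed in 16 of 20 and Etv5 in 13 of 20. With Xist signal as a further term 4 genes of the list fell and 1 rose. Without variance moderation 2 fell and 1 rose. Without Wip1-Tg secondary 1 Etv4 was not called (0.78, limma adjusted p = 0.05639), and Etv5 was not called without that array (0.46), wt primary 1 (0.54), Wip1-Tg primary 1 (0.49) or wt secondary 1 (0.50). As single arrays were left out, 6 to 9 genes of the list fell, the fewest without wt primary 1. Among the 4 arrays with Xist signal 5 genes of the list fell and none rose, and with median scaling 11 fell and none rose.

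**Figure D4:**
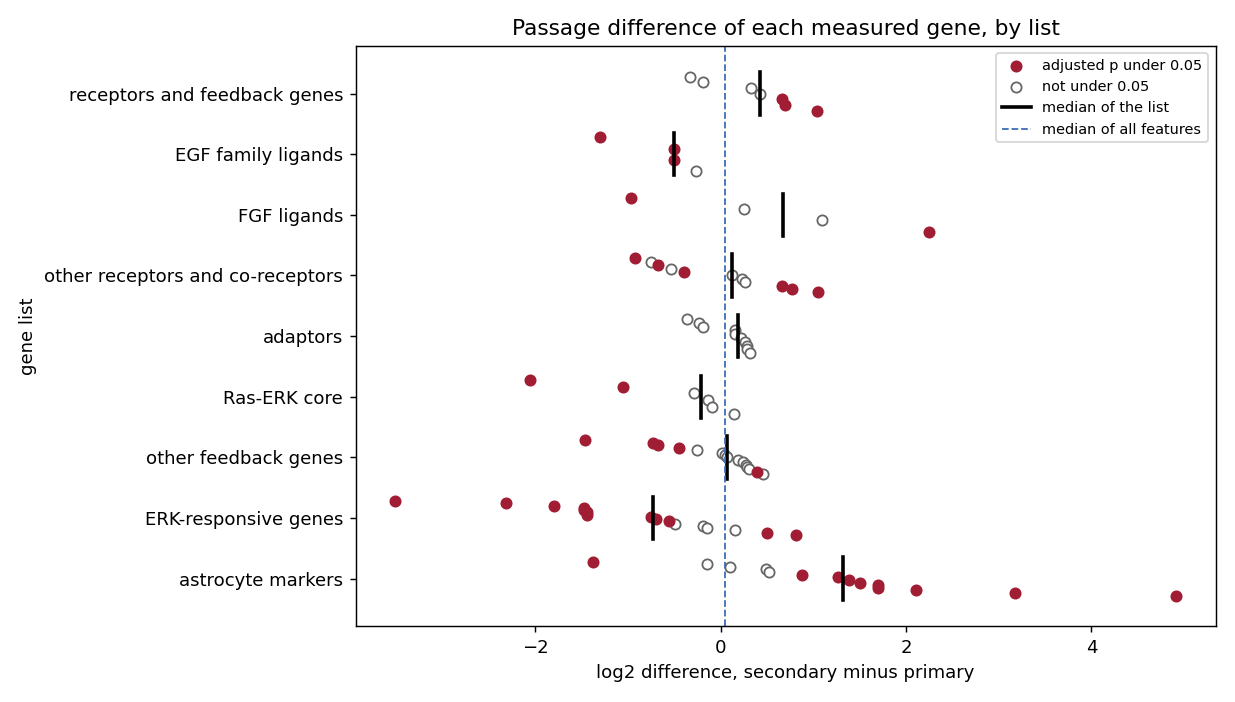
Secondary minus primary difference on the log2 scale (x axis) of each measured gene, by list (y axis), with filled points for an adjusted p under 0.05, a black bar at the median of each list and a dashed line at the median of all features. The receptor and feedback genes have a median of 0.42, the ERK-responsive genes of -0.73 and the astrocyte markers of 1.32.

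For genotype, limma called no gene of these lists. Those with an unadjusted p under 0.05, which did not pass over all features, were Fgf22 (0.51), Gpc3 (0.46), Ncam1 (-0.42), Shc3 (0.36), Cblb (0.49), Rasa2 (-0.28), Egr3 (0.60) and Myc (0.43). The sign depended on the probe for Egr3 (-0.14 to 0.60 over its kept probes), Ncam1 (-0.42 to 0.14) and Gpc3 (-0.038 to 0.46). Several rested on single arrays: without wt primary 1 Ncam1 gave -0.72, Egr3 1.00, Cblb 0.73, Rasa2 -0.18 and Myc 0.19, and without Wip1-Tg secondary 1 Ncam1 gave -0.11, Egr3 0.20, Cblb 0.26 and Myc 0.68.

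The genes whose profile over the 6 arrays lay nearest to each member that rose were found by the mean absolute difference of log2 values after centring each gene on its own mean. This describes 6 arrays that differ mainly by passage, so many genes share the pattern. Nearest to Fgfr2 were Tns3 (0.0242) and Phf21b (0.0314), where the median named feature lay at 0.385. Nearest to Fgfr3 were Anapc16 (0.0705) and Ahcyl1 (0.0784), against a median of 0.553. Nearest to Dusp6 were Marcks (0.0289) and Gm1943 (0.0373), against a median of 0.349. Among the members, Fgfr2 and Fgfr3 lay nearest each other (0.211), and the member nearest to Dusp6 was Egfr (0.15).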

How the data were processed

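Gene expression was measured on 6 one-colour arrays. Per the file headers, the deposited table without normalization gives each probe's intensity on each array with a detection p-value. The scanner software is not given in the sources used here. The deposited value table, used as an alternative, holds intensities that the authors quantile normalized, as the values show.

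Intensities were background corrected, quantile normalized and taken to log2 with neqc of limma 3.58.1 in R 4.3.3 (offset 16, background inferred from detection p-values). Kept were 18274 probes. Symbols came from the platform annotation, which gave 1 symbol to 34885 probes, several to 18 and none to 10378. The brightest kept probe stood for a gene, which left 12755 features, 10167 of them named. Linear models with eBayes held genotype and passage (3 residual degrees of freedom), or their interaction as well (2). P-values were adjusted by Benjamini-Hochberg over all features, with a threshold of 0.05. The fit was run on simulated data with independent noise and its own design. That run says nothing of shared cultures, the Xist difference between arrays or the scaling.

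All members were named. From each list up to 4 genes past the threshold for passage were named and up to 2 with the smallest unadjusted p for genotype, from marker lists at most 3, and for each member past the threshold the 2 features most alike. Members and lists were chosen with earlier results of these data known. Alternatives varied background correction, scaling, filter, probe choice, variance moderation, covariates and arrays. All arrays lay on 1 beadchip, so no chip batch was tested. The array codes end in A to C for primary and in D to F for secondary spheres. Position on the chip therefore runs with passage, and its part in the passage differences was not tested.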

Additional observations from a re-analysis of the deposited data

How the results depend on the processing

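The members' differences for passage, genotype and interaction were recomputed under 20 alternatives for passage and genotype and 16 for the interaction. This gave 357 values with the same direction and side of the threshold, 22 no longer past it, 2 newly past it and 11 with the opposite sign. The count of 357 is not a measure of stability. For genotype at most 1 feature was called in any setting and for the interaction at most 9, so few values could change side. Settings that changed only the filter or the variance estimate left the members' differences as they were. Members called higher for passage, 3 as reported, numbered 1 with median scaling (Fgfr3), 1 with the mean of the kept probes (Dusp6) and 0 without variance moderation, with Xist signal as a further term and in the 4 arrays with Xist signal. They numbered 0 to 3 as single arrays were left out, 0 without wt primary 1 and 1 (Fgfr3) without wt secondary 1 or Wip1-Tg secondary 1. Median scaling shifted the median of all features to -0.24 for passage and called 2 members lower, Erbb2 (-0.68, limma adjusted p = 0.02779) and Spry4 (-0.55, limma adjusted p = 0.03471). It turned the split of all calls from 1826 higher and 1757 lower to 626 higher and 3235 lower. Features called for passage fell from 3583 to 918 without moderation, 1112 with the Xist term, 1101 in the 4 arrays with Xist signal and 1363 to 3034 with 1 array left out. Each of these settings leaves fewer degrees of freedom, and the cause of the shift under median scaling was not tested.

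For genotype 1 feature was called with trend and robust variance. For the interaction 6 features were called with the authors' quantile normalized table, 6 without background correction, 1 with an offset of 50, 9 with median scaling, 1 without a filter and 9 with trend and robust variance, none of them a member. The interaction could not be had with a factor left out, in the 4 arrays with Xist signal, or without wt primary 1 or Wip1-Tg secondary 1. Opposite signs, none past the threshold, arose for Erbb2 by passage with the Xist term (0.074) and in the 4 arrays with Xist signal (0.11) and for Spry4 by passage without Wip1-Tg secondary 1 (0.055, with -0.44 to 0.055 over the 6 arrays left out in turn). By genotype they arose with median scaling for Egfr (-0.094) and Spry4 (-0.22), and without Wip1-Tg secondary 1 for Egfr (-0.043), Fgfr1 (0.037) and Fgfr3 (0.084), with ranges over the arrays left out in turn of -0.043 to 0.31, -0.55 to 0.037 and -0.50 to 0.084. Spry4 by genotype also turned in the 4 arrays with Xist signal (-0.24), without wt primary 1 (-0.24) and without Wip1-Tg primary 1 (-0.071), within -0.24 to 0.25 over the arrays left out in turn. No paired analysis was possible because the groups that share replicate numbers, Wip1-Tg primary and wt secondary, differ in both genotype and passage. Signal near background limits Fgfr1, Erbb3, Spry2 and the second probe of Fgfr3.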
